A study of Homo sapiens with 60 samples.

Results

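The glucocorticoid receptor gene NR3C1 and 6 genes that the receptor is known to switch on, FKBP5, TSC22D3, KLF9, SGK1, ERRFI1 and CEBPD, were followed through 60 RNA-seq libraries of SW1783 cells, an established human astrocytoma line. The 7 genes were taken by name from a list of the receptor and its known targets, and are 7 of the 60675 gene identifiers in the count table. They were chosen with earlier results of these data known. All 7 had enough counts to be tested in every comparison.

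The glucocorticoid receptor is a nuclear receptor that rests in the cytoplasm in a complex with HSP90 chaperones, binds cortisol or a synthetic glucocorticoid, and then moves to the nucleus, where it turns target genes on or off. Astrocytes carry the receptor, and in the brain its targets include genes for stress feedback, sugar and lipid handling and the damping of inflammation. Each of the 6 targets also answers to signals other than this receptor, such as growth factors, cytokines and cell stress.

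The cells were treated for 24 h with an ethanol extract of 1 of 4 single herbs (Menthae Herba, Polygalae Radix, Saposhnikoviae Radix, Aucklandiae Radix) or 1 of 4 multi-herb formulas (Saengmaek-san, Guibi-tang, Soyo-san, Okbyeongpung-san), or with vehicle alone. Polygalae Radix was given at a high dose of 30, a medium dose of 6 and a low dose of 1.2 µg/mL. Aucklandiae Radix was given at 160, 32 and 6.4 µg/mL in the same order, and the remaining 6 extracts at 500, 100 and 20 µg/mL. Vehicle was DMSO, at 0.1% in the sample labels and 2% in the text for the series, and which applies could not be settled. Vehicle had 3 libraries, each dose of Guibi-tang, Saengmaek-san, Menthae Herba and Saposhnikoviae Radix had 3, each dose of Polygalae Radix, Aucklandiae Radix and Soyo-san had 2, and each dose of Okbyeongpung-san had 1 and was not tested. The sample labels name no added glucocorticoid and no receptor blocker.

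Library totals lay between 19031094 and 37686975 expected counts. Levels are given as TMM-scaled CPM, that is, counts relative to the library total multiplied by a TMM factor for each library. They compare 1 gene between libraries and not different genes. Library names put vehicle in a set of its own and each extract in 1 of 4 sets, so that set and extract cannot be told apart against vehicle, while high against low dose stays within a set. The labels do not say whether replicates were separate cultures, so p-values may measure only technical spread. In 14 of the 60 libraries short transcripts were over-represented relative to long ones, with a slope below -0.15 when the log2 deviation from the vehicle mean is set against log2 transcript length, the steepest in Saposhnikoviae Radix high replicate 2 (-0.661), Okbyeongpung-san high (-0.593), Menthae Herba high replicate 3 (-0.507) and Saposhnikoviae Radix low replicate 3 (-0.496). Of 14 astrocyte and glioma markers, 8 had a median under 1 CPM, GFAP, S100B, AQP4 and ALDH1L1 among them, while VIM, CD44, SOX9 and EGFR were read at 5248.0, 2708.5, 73.3 and 301 CPM. The summed level of the 14 was 8439.1 to 8658.0 CPM in vehicle, and 1675.4 to 1760.8 CPM at the high dose of Polygalae Radix and 1993.9 to 2219.1 CPM at that of Guibi-tang. Sums of other listed markers were lower there too. In the same order, listed neuron markers summed to 165 to 181, 39.3 to 44.0 and 57.2 to 62.3 CPM. Epithelium markers summed to 142 to 154, 26.3 to 27.4 and 23.5 to 24.3 CPM. The part of these shifts in the results below was not tested unless a value is given.

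Promoter windows of RefSeq (build GRCh38.p14), from 250 bases before to 50 bases after an annotated start, were searched for the DNA letters that the receptor favours. The table held 18 windows for 6 of the 7 genes, some of them overlapping, and none for CEBPD. The half-site AGAACA was sought on both strands, and so was the facing pair, AGAACA and TGTTCT spaced by 3 bases, with up to 2 mismatches. The half-site was in 2 of the 18 windows, 1 of FKBP5 and 1 of SGK1, against 14.8% of all 35116 windows of this length. The facing pair was in 0 of the 18, against 1.41% of all windows. The 30 bases around each half-site, in capitals, are shown 5′ to 3′ on the minus strand, on which both genes lie. They lie at chr6:35728566-35728595 for FKBP5, where the half-site begins at the first transcribed base, and at chr6:134177839-134177868 for SGK1, where it begins at base 6.
FKBP5: caccactaccccAGAACAaactcctacctc
SGK1: ggggttcataacAGAACAgggatagccgtc
A match of letters is a description and not a binding site, and sites farther from the start were not searched.

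At the high dose at most 5 of the 7 genes were called against vehicle with any extract, and NR3C1 with none. A gene was called at an adjusted p under 0.05 by edgeR's quasi-likelihood test, with Benjamini-Hochberg adjustment over all 19366 genes tested. The spread was estimated over all 25 groups, length-tilted libraries included, and not from the compared groups alone. The 7 comparisons of a high dose with vehicle share the same 3 vehicle libraries. With Polygalae Radix, KLF9, SGK1, ERRFI1 and CEBPD rose and FKBP5 fell, 4 and 1 of 7, where 22.4% of all genes were called higher and 25.6% lower. With Aucklandiae Radix, TSC22D3, KLF9, SGK1 and CEBPD fell and 0 of 7 rose, where 17.0% of all genes were called lower and 15.7% higher. With Guibi-tang, SGK1 and ERRFI1 rose and FKBP5 fell, 2 and 1 of 7, against 23.6% and 26.6% of all genes.

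Fewer of the 7 were called with the other extracts. With Menthae Herba, TSC22D3 and KLF9 rose and SGK1 fell, 2 and 1 of 7, against 11.1% called higher and 11.7% called lower of all genes. With Saengmaek-san, TSC22D3 alone rose, 1 of 7, and 0 fell, against 8.87% and 8.54%. With Saposhnikoviae Radix 0 of 7 rose and 0 fell by edgeR, against 8.61% and 4.05% of all genes, and 0 of the 7 had an unadjusted p under 0.05. With Soyo-san 0 of 7 rose and 0 fell by edgeR, against 1.62% and 1.29%, again with 0 of the 7 under an unadjusted 0.05. DESeq2 also called 0 of the 7 for these last extracts against vehicle. The median log2 fold change of the 7 was 0.89 with Polygalae Radix and -0.29 with Aucklandiae Radix, where that of all genes was 0.03 and -0.02, and it lay between -0.07 and 0.11 with the other extracts.

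High against low dose uses no vehicle library and stays within a library set. With Polygalae Radix, KLF9, SGK1, ERRFI1 and CEBPD rose and FKBP5 fell, 4 and 1 of 7, against 20.8% and 25.2% of all genes. With Aucklandiae Radix, ERRFI1 rose and TSC22D3, KLF9, SGK1 and CEBPD fell, 1 and 4 of 7, against 10.5% and 13.4%. With Guibi-tang, SGK1 and ERRFI1 rose and CEBPD fell, 2 and 1 of 7, against 23.8% and 27.4%. With Menthae Herba, TSC22D3 rose and SGK1 fell, 1 and 1 of 7, against 6.33% and 9.28%.

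For Saposhnikoviae Radix 0 of 7 were called in either direction from low to high dose by edgeR, where 0.196% of all genes were called higher and 0.181% lower. DESeq2 called 1 of the 7 there, TSC22D3, and 1 had an unadjusted p under 0.05. That count turned on Saposhnikoviae Radix high replicate 2, the library with the steepest length slope: without it 6 of the 7 were called, among 5005 of all 19366 genes. Saengmaek-san had 0 of 7 called by edgeR and by DESeq2, with 1 under an unadjusted 0.05, against 2.41% higher and 3.28% lower of all genes. Soyo-san had 0 of 7 called by edgeR and by DESeq2, with 0 under an unadjusted 0.05, against 0.263% and 0.232%.

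**Figure D1:**
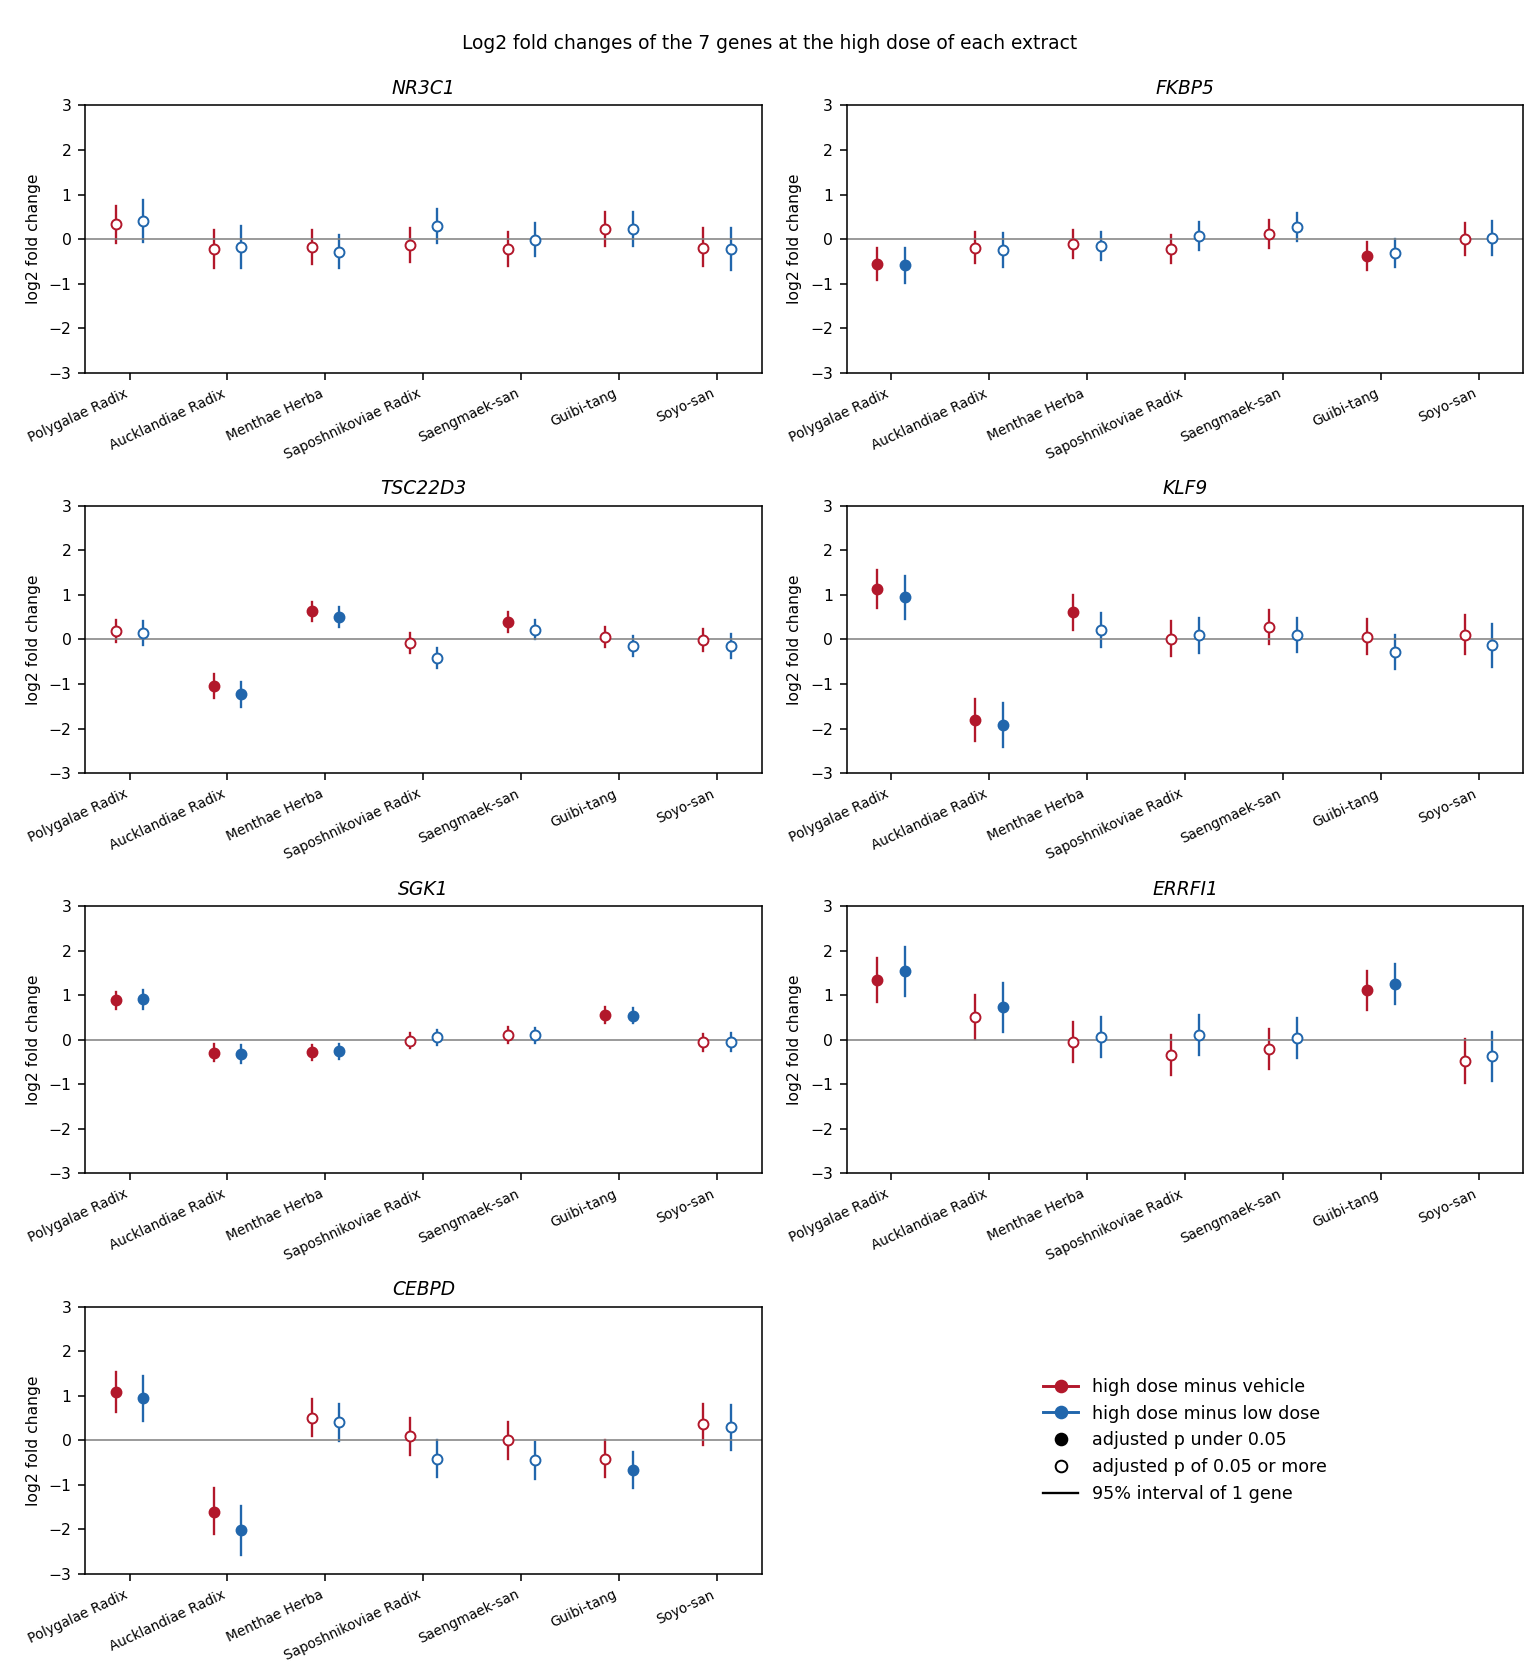
Log2 fold changes (vertical axis) of the 7 genes, 1 panel each, for the high dose of 7 extracts (horizontal axis) against vehicle (red) and against the low dose (blue), with 95% intervals of the single gene; filled points had an adjusted p under 0.05. KLF9 and CEBPD are high with Polygalae Radix and low with Aucklandiae Radix, ERRFI1 is high with Polygalae Radix and Guibi-tang, and every point of NR3C1 is open.

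NR3C1 (ENSG00000113580, chromosome 5, 143277931 to 143435512, minus strand, GRCh38 in GENCODE 29) encodes the receptor. In vehicle it was read at 220, 243 and 248 CPM, a mean of 237 ± 14.8 (SD, n = 3). At the high doses it was read at 269 and 328 CPM with Polygalae Radix, and at 285, 277 and 265 CPM with Guibi-tang. Both groups lay above the whole vehicle range.

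At 203 and 203 CPM with Aucklandiae Radix, and 212 and 205 CPM with Soyo-san, NR3C1 lay below the vehicle range. Saengmaek-san libraries gave 175, 235 and 201 CPM, overlapping vehicle. Levels were 256, 240 and 135 CPM in replicates 1 to 3 of Menthae Herba, and at 257, 133 and 257 CPM in those of Saposhnikoviae Radix. In each of these groups 1 library was far below the other libraries, which lay within or just above the vehicle range. The single Okbyeongpung-san high library was read at 124 CPM, the lowest of all 60.

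No difference of NR3C1 passed the test, with log2 fold changes from -0.22 to 0.33 against vehicle and from -0.28 to 0.41 against the low dose. The smallest adjusted p of these was 0.146, for Polygalae Radix high against low dose (log2 fold change 0.41, 95% interval -0.06 to 0.88). The 4 lowest NR3C1 libraries, at 124, 133, 135 and 139 CPM, were the 4 libraries with the steepest length slopes. Over all libraries NR3C1 was read at 124 to 221 CPM (median 179) in the 14 with a slope below -0.15 and at 203 to 328 CPM (median 249) in the other 46.

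The NR3C1 result changed when those 14 libraries were left out, and the cause was not tested. Without them NR3C1 was called higher against vehicle with Polygalae Radix (log2 fold change 0.34, adjusted p = 5.7e-05) and Guibi-tang (0.22, adjusted p = 0.0026) and lower with Aucklandiae Radix (-0.22, adjusted p = 0.00934). With the slope as a covariate instead, it was called higher with Polygalae Radix (0.20, adjusted p = 0.00941), and its sign turned for Menthae Herba (0.21, adjusted p = 0.0068) and Saposhnikoviae Radix (0.21, adjusted p = 0.0264). Fitted on only the groups compared, NR3C1 was called higher than vehicle with Polygalae Radix (0.34, adjusted p = 0.00402) and Guibi-tang (0.22, adjusted p = 9.9e-04). In that fit it was called lower with Aucklandiae Radix (-0.22, adjusted p = 0.0136) and Soyo-san (-0.19, adjusted p = 0.0221).

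FKBP5 (ENSG00000096060, chromosome 6, 35573585 to 35728583, minus strand) encodes a co-chaperone that lowers the receptor's affinity for hormone and is itself induced by the receptor, which closes a feedback loop. It was read at 9.40, 10.5 and 11.9 CPM in vehicle (10.6 ± 1.24, SD, n = 3). Polygalae Radix at its high dose gave 6.62 and 7.67 CPM, and Guibi-tang at its own gave 7.66, 7.94 and 8.62 CPM. On this scale all 5 of these libraries lay below all 3 vehicle libraries. Relative to library totals alone, without the TMM factor, both groups overlapped vehicle. The counts with Guibi-tang, for example, were 210, 262 and 303 in totals of 21378428, 24915851 and 27413214. In vehicle they were 228, 258 and 280 in totals of 25773887, 26477754 and 25186538.

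FKBP5 fell by 0.57 ± 0.18 on the log2 scale (SE) with Polygalae Radix against vehicle (adjusted p = 0.00754) and by 0.59 ± 0.19 against its low dose (adjusted p = 0.0108). It fell by 0.39 ± 0.16 with Guibi-tang against vehicle (adjusted p = 0.0352), and the difference from the low dose was -0.31 (adjusted p = 0.0954). The Polygalae Radix calls were lost without high replicate 2 (adjusted p = 0.11 and 0.111), and the one against low dose also without low replicate 2 (adjusted p = 0.0824). The Guibi-tang call was lost without vehicle replicate 2 or 3 or high replicate 1 or 2, with adjusted p up to 0.162. The length slopes of the 5 libraries that lay low were not steep, between 0.0446 and 0.0777, but were the most positive of all libraries.

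FKBP5 was read at 9.43 and 9.12 CPM with Aucklandiae Radix, at 9.95, 12.2 and 12.3 CPM with Saengmaek-san, and at 9.69 and 11.5 CPM with Soyo-san, all overlapping vehicle. It was read at 11.6, 10.4 and 7.39 CPM with Menthae Herba and at 10.9, 5.55 and 10.5 CPM with Saposhnikoviae Radix, where the low libraries were again the ones with steep length slopes. None of these was called. Okbyeongpung-san high was read at 6.07 CPM.

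TSC22D3 (ENSG00000157514, chromosome X, 107713221 to 107777342, minus strand) encodes GILZ, a leucine zipper protein through which glucocorticoids damp inflammatory transcription. In vehicle it was read at 15.7, 14.5 and 16.7 CPM (15.6 ± 1.10, SD, n = 3). The high dose of Aucklandiae Radix gave 6.87 and 8.26 CPM, the lowest libraries of all 60 for this gene. That of Menthae Herba gave 23.1, 21.5 and 28.0 CPM, the highest group, in which the last library was also one of the steepest in length slope. Neither group overlapped vehicle or its own low dose.

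TSC22D3 fell 2.07-fold with Aucklandiae Radix against vehicle (-1.05 on the log2 scale, SE 0.13, adjusted p = 2.2e-08) and 2.34-fold against the low dose (-1.23, SE 0.14, adjusted p = 4.4e-09). It rose 1.55-fold with Menthae Herba against vehicle (0.63, SE 0.11, adjusted p = 2.6e-05) and 1.41-fold against the low dose (0.50, SE 0.11, adjusted p = 8.0e-04). The last call was lost when only those 2 groups were fitted (adjusted p = 0.107). With Saengmaek-san, at 21.9, 18.8 and 20.6 CPM, it rose 1.31-fold against vehicle (0.39, SE 0.11, adjusted p = 0.0110). That call was lost without vehicle replicate 2 or Saengmaek-san high replicate 1 (adjusted p = 0.0708 and 0.0693) and without the length-tilted libraries (0.148).

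TSC22D3 was read at 16.7 and 19.2 CPM with Polygalae Radix, at 17.6, 15.7 and 15.1 CPM with Guibi-tang and at 15.5 and 15.5 CPM with Soyo-san. Saposhnikoviae Radix gave 14.1, 14.1 and 16.3 CPM at its high dose and 17.5, 21.6 and 20.5 CPM at its low dose. These last groups did not overlap, and the difference was -0.42 on the log2 scale with an adjusted p of 0.0746. The low dose of Saposhnikoviae Radix was called higher than vehicle (0.35, adjusted p = 0.0287), a call lost without any 1 of the 3 vehicle libraries or without low replicate 2 or 3 (adjusted p up to 0.185), or without the length-tilted libraries (0.485). Okbyeongpung-san high was read at 15.6 CPM, within the vehicle range.

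KLF9 (ENSG00000119138, chromosome 9, 70384597 to 70414624, minus strand) encodes a zinc finger transcription factor induced by glucocorticoids and thyroid hormone in brain cells. In vehicle it was read at 76.3, 85.2 and 81.6 CPM (81.0 ± 4.52, SD, n = 3). The high dose of Polygalae Radix gave 156 and 199 CPM and that of Aucklandiae Radix 23.9 and 22.3 CPM. Of the 25 groups these were the highest and the lowest mean for KLF9, and neither overlapped vehicle.

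KLF9 rose 2.19-fold with Polygalae Radix against vehicle (1.13 on the log2 scale, SE 0.21, adjusted p = 2.2e-05) and 1.93-fold against its low dose (0.95, SE 0.24, adjusted p = 0.00106). With Aucklandiae Radix it fell 3.51-fold against vehicle (-1.81, SE 0.23, adjusted p = 5.0e-08) and 3.78-fold against the low dose (-1.92, SE 0.25, adjusted p = 7.4e-08). With Menthae Herba, at 144, 138 and 89.7 CPM in replicates 1 to 3, it rose 1.53-fold against vehicle (0.61, SE 0.19, adjusted p = 0.0173). That call was lost without vehicle replicate 1 or 3 or high replicate 1 or 2 (adjusted p up to 0.0908), and when only the 2 groups were fitted (0.0789). From low to high dose of Menthae Herba the difference was 0.21 (adjusted p = 0.498), with the low dose read at 102, 108 and 111 CPM. High replicates 1 and 2 lay above these, and high replicate 3, with a length slope of -0.507, lay below them. KLF9 was called higher in this comparison without the length-tilted libraries (0.40, adjusted p = 8.7e-05) and with the slope as a covariate (0.58, adjusted p = 2.4e-08).

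KLF9 was read at 88.1, 109 and 97.3 CPM with Saengmaek-san, all above vehicle, and at 87.5 and 86.9 CPM with Soyo-san, just above it. Guibi-tang gave 87.6, 81.9 and 84.2 CPM, overlapping vehicle, and below the 110, 94.1 and 105 CPM of the low dose. Saposhnikoviae Radix gave 103, 40.6 and 104 CPM. None of these differences was called. Without the length-tilted libraries, KLF9 was called higher than vehicle with Saengmaek-san (0.43, adjusted p = 0.00181) and Saposhnikoviae Radix (0.34, adjusted p = 0.00389) and lower than the low dose with Guibi-tang (-0.34, adjusted p = 1.8e-04). Okbyeongpung-san high was read at 48.7 CPM.

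CEBPD (ENSG00000221869, chromosome 8, 47736909 to 47739086, minus strand) encodes a basic leucine zipper transcription factor that both glucocorticoids and inflammatory cytokines induce. In vehicle it was read at 15.4, 16.1 and 13.5 CPM (15.0 ± 1.37, SD, n = 3). The high dose of Polygalae Radix gave 34.5 and 29.1 CPM, and its medium dose 24.4 and 21.3 CPM. The high dose of Aucklandiae Radix gave 6.31 and 3.62 CPM. All of these lay outside the vehicle range, on opposite sides for the 2 herbs.

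CEBPD rose 2.12-fold with Polygalae Radix against vehicle (1.08 on the log2 scale, SE 0.22, adjusted p = 8.8e-05) and 1.92-fold against the low dose (0.94, SE 0.25, adjusted p = 0.00183). It fell 3.02-fold with Aucklandiae Radix against vehicle (-1.60, SE 0.25, adjusted p = 2.9e-06) and 4.07-fold against the low dose (-2.02, SE 0.27, adjusted p = 1.5e-07). With Guibi-tang, at 10.2, 10.9 and 12.8 CPM, it lay below all vehicle libraries (-0.41, adjusted p = 0.0976) and fell 1.59-fold from the 17.0, 18.6 and 18.5 CPM of the low dose (-0.67, SE 0.20, adjusted p = 0.00585). On this scale Guibi-tang and Polygalae Radix lay on opposite sides of vehicle for CEBPD, though the Guibi-tang difference from vehicle was not called. Both were above vehicle for SGK1 and ERRFI1. Relative to library totals alone, without the TMM factor, Guibi-tang overlapped vehicle for CEBPD. Its counts were 279, 360 and 451 in totals of 21378428, 24915851 and 27413214. Vehicle had 374, 398 and 318 in totals of 25773887, 26477754 and 25186538.

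CEBPD was read at 19.8, 18.8 and 25.3 CPM with Menthae Herba and at 18.5 and 20.0 CPM with Soyo-san, above all vehicle libraries but not called (adjusted p = 0.0691 and 0.531). It was read at 14.2, 12.8 and 18.2 CPM with Saengmaek-san and at 12.3, 22.4 and 13.7 CPM with Saposhnikoviae Radix, overlapping vehicle. Unlike NR3C1, FKBP5, SGK1 and ERRFI1, CEBPD was high in libraries with steep length slopes: Saposhnikoviae Radix low replicate 3 gave 29.2 CPM, Menthae Herba high replicate 3 gave 25.3 CPM and Okbyeongpung-san high gave 24.4 CPM.

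SGK1 (ENSG00000118515, chromosome 6, 134169246 to 134318112, minus strand) encodes a kinase of the AKT family that regulates ion transport and cell survival, and that serum as well as glucocorticoids induce. In vehicle it was read at 71.2, 73.8 and 69.6 CPM (71.5 ± 2.11, SD, n = 3). The high dose of Polygalae Radix gave 127 and 138 CPM and that of Guibi-tang 109, 106 and 102 CPM. All 5 libraries were above every other library of the 60. The same 5 had the most positive length slopes, 0.0446 to 0.0777, and the part of this in the SGK1 values was not tested.

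SGK1 rose 1.85-fold with Polygalae Radix against vehicle (0.89 on the log2 scale, SE 0.09, adjusted p = 1.7e-10) and 1.89-fold against the low dose (0.92, SE 0.10, adjusted p = 1.5e-09). It rose 1.48-fold with Guibi-tang against vehicle (0.56, SE 0.08, adjusted p = 4.6e-07) and 1.46-fold against the low dose (0.54, SE 0.08, adjusted p = 8.8e-07). The medium doses stood between, at 84.8 and 88.5 CPM for Polygalae Radix and 82.0, 80.0 and 78.2 CPM for Guibi-tang, above all vehicle libraries but not called.

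SGK1 was lower than vehicle with Aucklandiae Radix, at 59.2 and 57.8 CPM (-0.29, SE 0.10, adjusted p = 0.0161), and with Menthae Herba, at 61.9, 57.9 and 57.1 CPM (-0.28, SE 0.08, adjusted p = 0.0135). Against the low doses the differences were -0.32 (adjusted p = 0.0189) and -0.26 (adjusted p = 0.0285). These calls lay near the threshold. The Aucklandiae Radix call against vehicle was lost without vehicle replicate 2 or either high library (log2 fold change -0.27 to -0.30, adjusted p up to 0.111), and that against the low dose without any 1 of its 4 libraries (-0.31 to -0.34, up to 0.103). The Menthae Herba call against vehicle was lost without vehicle replicate 2 or high replicate 3 (-0.26 for each, adjusted p up to 0.0644), and that against the low dose without replicate 2 or 3 of either dose (-0.24 to -0.25, up to 0.124). Both Menthae Herba calls were also lost when the length slope was added to the fit (-0.15 for each, adjusted p = 0.0628 and 0.0887) and with only the groups compared (-0.28 and -0.26, adjusted p = 0.091 and 0.164). With no low-count filter all 4 SGK1 calls were lost (-0.26 to -0.32, adjusted p of 0.147 to 0.228). Saengmaek-san gave 76.2, 78.7 and 77.1 CPM, Soyo-san 69.5 and 68.4 CPM, Saposhnikoviae Radix 81.8, 51.6 and 78.2 CPM, and Okbyeongpung-san 54.4 CPM. None of the first 3 groups was called.

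ERRFI1 (ENSG00000116285, chromosome 1, 8004404 to 8026308, minus strand) encodes MIG6, a feedback inhibitor of the EGF receptor. In vehicle it was read at 80.8, 88.6 and 85.0 CPM (84.8 ± 3.88, SD, n = 3). The high dose of Polygalae Radix gave 212 and 217 CPM, that of Guibi-tang 181, 186 and 180 CPM, and that of Aucklandiae Radix 122 and 121 CPM. These 7 libraries were the 7 highest of the 60, with close replicates and no overlap with any other group.

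ERRFI1 rose 2.53-fold with Polygalae Radix against vehicle (1.34 on the log2 scale, SE 0.24, adjusted p = 1.2e-05) and 2.91-fold against the low dose (1.54, SE 0.27, adjusted p = 1.1e-05). It rose 2.15-fold with Guibi-tang against vehicle (1.11, SE 0.22, adjusted p = 5.5e-05) and 2.40-fold against the low dose (1.26, SE 0.22, adjusted p = 7.8e-06). The summed level of the astrocyte and glioma markers was lowest of all groups at these same high doses, as were those of the neuron and epithelium markers. The length slopes of these libraries were also the most positive of all. The part of these shifts in the ERRFI1 values was not tested.

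With Aucklandiae Radix, ERRFI1 was 1.43-fold above vehicle without passing the test (0.52, adjusted p = 0.100), and it was called 1.66-fold higher than the low dose (0.73, SE 0.27, adjusted p = 0.0442). The first was called without the length-tilted libraries (0.52, adjusted p = 2.9e-08) and with only the groups compared (0.52, adjusted p = 2.5e-05). The second was lost with no low-count filter (0.73, adjusted p = 0.12) and without any 1 of the 4 libraries compared (0.66 to 0.81). Each of these last fits has 1 library in an arm, which is assumed to vary like the other groups. ERRFI1 was read at 92.5, 93.5 and 60 CPM with Menthae Herba, 91.0, 25.7 and 84.7 CPM with Saposhnikoviae Radix, 65.2, 81.4 and 74.3 CPM with Saengmaek-san and 62.7 and 59.7 CPM with Soyo-san. The Soyo-san libraries were below all vehicle libraries (-0.47, adjusted p = 0.411), and were called lower without the length-tilted libraries (-0.47, adjusted p = 7.4e-06). Okbyeongpung-san high gave 39.8 CPM, and the 25.7 CPM of Saposhnikoviae Radix high replicate 2 was the lowest of all libraries.

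**Figure D2:**
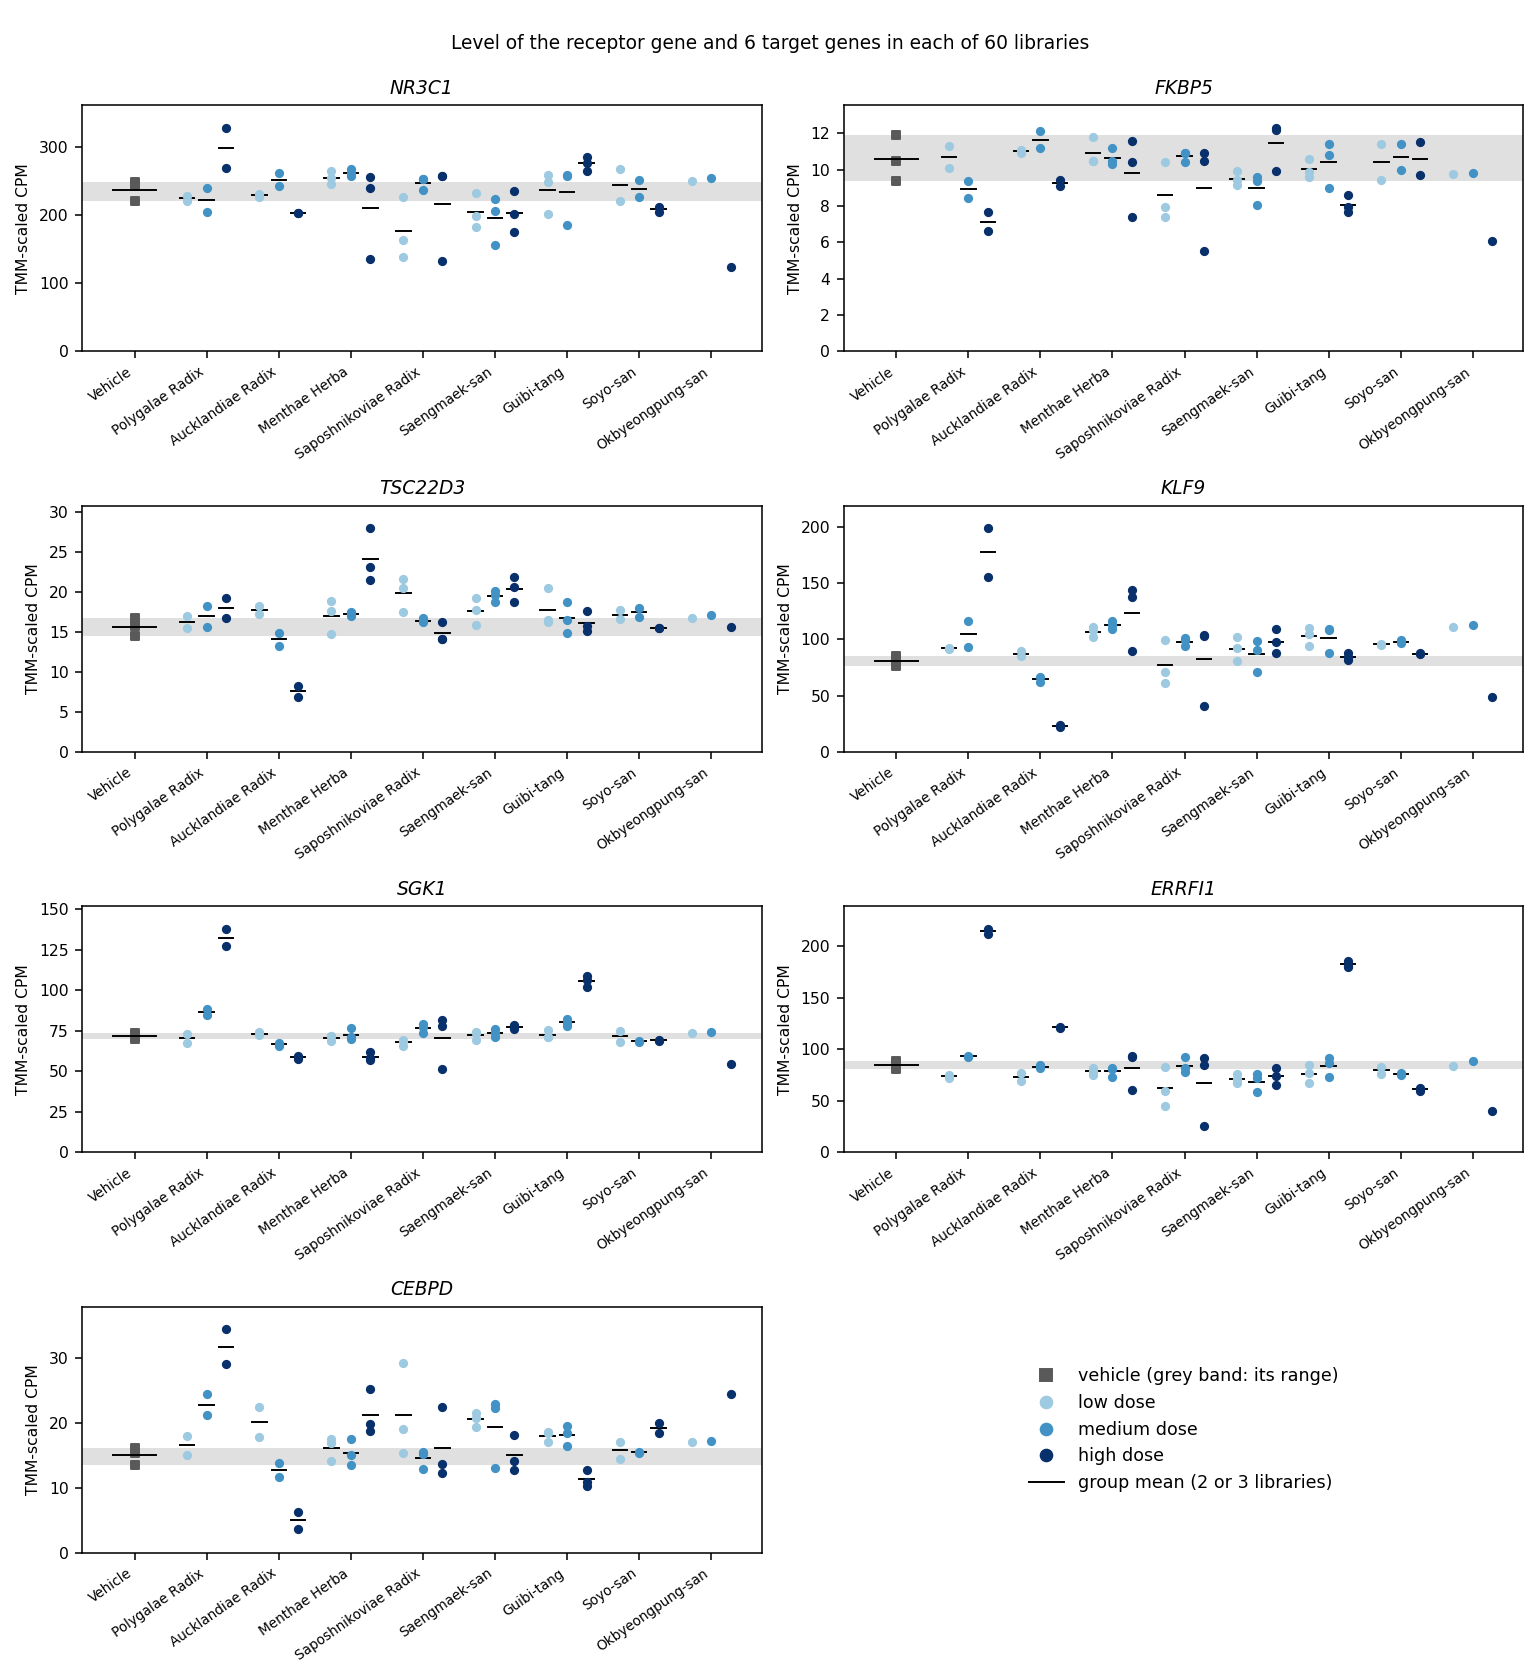
TMM-scaled CPM (vertical axis, from 0) of each gene in all 60 libraries, by extract (horizontal axis) and dose (shade), with the group mean as a line where there are 2 or 3 libraries and the vehicle range as a grey band. The high doses of Polygalae Radix and Guibi-tang stand above all else for SGK1 and ERRFI1, and Aucklandiae Radix high lies at the bottom for TSC22D3, KLF9 and CEBPD.

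**Figure D3:**
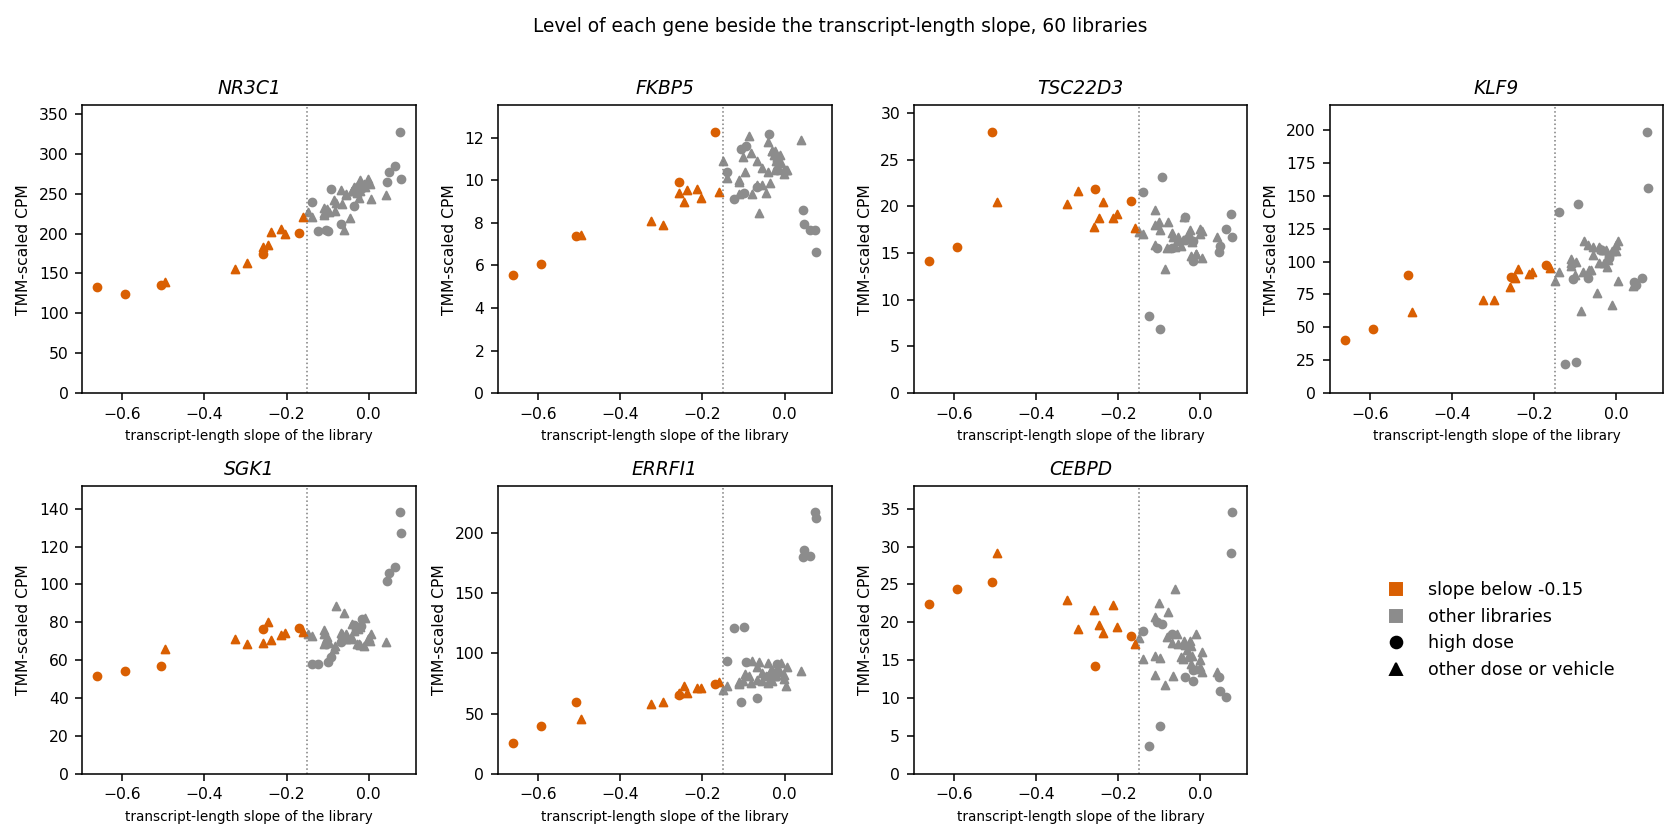
TMM-scaled CPM (vertical axis, from 0) of each gene against the transcript-length slope of the library (horizontal axis), 60 libraries, with the 14 libraries below -0.15 in orange and high doses as circles. For NR3C1, FKBP5, SGK1 and ERRFI1 the 4 libraries with the steepest slopes are all among the 8 lowest of the 60, while the Aucklandiae Radix high libraries, lowest for TSC22D3, KLF9 and CEBPD, have slopes of -0.0986 and -0.124.

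Below the high dose 1 of the 7 genes passed the test against vehicle, TSC22D3 at the low dose of Saposhnikoviae Radix, while KLF9 lay above vehicle in many groups without passing it. At the medium dose 0 of 7 were called by edgeR for any extract, against 6.77% of all genes with Guibi-tang, 4.36% with Saengmaek-san, 4.40% for Polygalae Radix, 4.18% for Aucklandiae Radix, 1.00% for Saposhnikoviae Radix, 0.997% for Menthae Herba and 0.238% for Soyo-san. The smallest adjusted p was 0.0795, for TSC22D3 with Saengmaek-san (log2 fold change 0.32), followed by 0.0928 for SGK1 with Polygalae Radix (0.28) and 0.135 for CEBPD with Polygalae Radix (0.61). Under an unadjusted 0.05 there were 2 members for Polygalae Radix, 1 for Menthae Herba, 1 for Saengmaek-san and 0 for the others. DESeq2 called 1 member, for Polygalae Radix.

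At the low dose only TSC22D3 with Saposhnikoviae Radix was called, 1 of 7, against 17.0% of all genes. The other low doses had 0 of 7 called by edgeR and by DESeq2, against 4.02% of all genes for Saengmaek-san, 2.46% for Guibi-tang, 1.52% for Soyo-san, 1.11% for Polygalae Radix, 0.728% for Aucklandiae Radix and 0.496% for Menthae Herba. Of these, Menthae Herba and Saengmaek-san had 1 member each under an unadjusted 0.05, KLF9 (0.40) and CEBPD (0.45). Without Saposhnikoviae Radix low replicate 1, 5 of the 7 were called against vehicle at that dose, among 6821 of all 19366 genes. Leaving out the length-tilted libraries leaves low replicate 1 alone at that dose, and TSC22D3 then differed from vehicle by 0.17 on the log2 scale.

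KLF9 was read at 76.3 to 85.2 CPM in vehicle, which ranked 21 of the 25 groups from the top. Every library of the medium doses of Menthae Herba, Guibi-tang, Saposhnikoviae Radix, Soyo-san and Polygalae Radix, and of the low doses of Soyo-san, Polygalae Radix, Menthae Herba and Guibi-tang, was above this range. The largest of these differences was at Menthae Herba medium, at 109 to 116 CPM (1.39-fold, log2 fold change 0.48, 95% interval 0.09 to 0.86, adjusted p = 0.297). Aucklandiae Radix medium lay below vehicle, at 62.3 and 66.8 CPM (-0.33, adjusted p = 0.522).

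These KLF9 results changed with the fit, and the cause was not tested. Without the length-tilted libraries KLF9 was called higher than vehicle at the medium doses of Menthae Herba (0.47, adjusted p = 7.4e-05), Guibi-tang (0.41, 2.2e-04), Polygalae Radix (0.38, 4.8e-04), Saposhnikoviae Radix (0.27, 0.0101) and Soyo-san (0.28, 0.022). It was also called higher at low doses, with Menthae Herba (0.39, adjusted p = 8.9e-04), Guibi-tang (0.40, 0.00214) and Saengmaek-san (0.33, 0.0351), and lower at Aucklandiae Radix medium (-0.33, 0.00287). With the slope as a covariate it was called at all 7 medium doses, lower only with Aucklandiae Radix (-0.24, adjusted p = 0.0284), and higher at all 7 low doses (0.33 to 0.54). Fitted on only the groups compared, it was called higher at the medium doses of Menthae Herba, Saposhnikoviae Radix, Soyo-san and Polygalae Radix and the low dose of Menthae Herba (adjusted p up to 0.0175), and lower at Aucklandiae Radix medium (0.00846). Vehicle is a library set of its own, so set and extract cannot be told apart here.

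At Polygalae Radix medium, CEBPD was 1.52-fold above vehicle with no overlap of libraries (0.61, 95% interval 0.15 to 1.06, adjusted p = 0.135). It was called there without the length-tilted libraries (0.61, adjusted p = 0.00245), with the covariate (0.52, 0.0246) and with only the groups compared (0.60, 0.00186). SGK1 was called at that dose in the same 3 fits and by DESeq2 (0.27 to 0.31, adjusted p up to 0.0289).

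Over the 8 medium-dose groups the mean level ran from 195 to 262 CPM for NR3C1, from 8.92 to 11.6 CPM for FKBP5 and from 14.1 to 19.5 CPM for TSC22D3. For KLF9 it ran from 64.6 CPM with Aucklandiae Radix to 113 CPM with Okbyeongpung-san, and for CEBPD from 12.7 CPM with Aucklandiae Radix to 22.9 CPM with Polygalae Radix. For SGK1 it ran from 66.7 CPM with Aucklandiae Radix to 86.6 CPM with Polygalae Radix, and for ERRFI1 from 68.5 CPM with Saengmaek-san to 93.0 CPM with Polygalae Radix. Aucklandiae Radix medium was thus lowest for TSC22D3, KLF9, SGK1 and CEBPD, and Polygalae Radix medium highest for SGK1, ERRFI1 and CEBPD, on the side of vehicle where each herb had its called changes at the high dose.

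Ordered by group mean, neighbouring groups mostly overlapped in their libraries. Of the 24 neighbouring pairs among 25 groups, 1 did not overlap for NR3C1, 1 for FKBP5, 2 for TSC22D3, 3 for CEBPD, 5 for ERRFI1, 6 for KLF9 and 6 for SGK1. These include pairs with single libraries of Okbyeongpung-san, such as its medium and low doses for KLF9, SGK1 and CEBPD, which show no spread. The same was not counted for all genes, so it is not known whether these counts are unusual. For ERRFI1 the order Polygalae Radix high, Guibi-tang high, Aucklandiae Radix high and Polygalae Radix medium was free of overlap at each step. For SGK1 the same held from Polygalae Radix high to Guibi-tang high, Polygalae Radix medium and Guibi-tang medium. For NR3C1 the top 2, Polygalae Radix high and Guibi-tang high, overlapped.

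Extracts of the same library set were compared directly, by the difference between them in the change from low to high dose. Doses differed between Polygalae Radix and Aucklandiae Radix, so this contrasts each herb at its own high dose. Of the 7 genes, 4 differed, all toward Polygalae Radix, against 33.9% of all genes called either way. The difference was 2.97 ± 0.37 (log2, SE) for CEBPD (adjusted p = 1.8e-08), 2.86 ± 0.34 for KLF9 (adjusted p = 8.3e-09), 1.37 ± 0.19 for TSC22D3 (adjusted p = 2.6e-07) and 1.24 ± 0.15 for SGK1 (adjusted p = 7.7e-09). For KLF9, SGK1 and CEBPD the 2 herbs moved in opposite directions, each past the test. The SGK1 fall with Aucklandiae Radix was small and near the threshold (-0.32, adjusted p = 0.0189). Its call was lost with no low-count filter (adjusted p = 0.158) and without any 1 of the libraries compared, as given above.

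At equal doses, Guibi-tang differed from Saengmaek-san in 3 of 7 genes, against 34.9% of all genes. ERRFI1 changed more with Guibi-tang by 1.22 ± 0.31 (adjusted p = 0.00187) and SGK1 by 0.45 ± 0.12 (adjusted p = 0.00276). FKBP5 had a difference of -0.58 ± 0.22 (adjusted p = 0.0357), a call lost without any 1 of 7 libraries (adjusted p up to 0.0743), namely high replicate 1 or 2 or low replicate 3 of Guibi-tang, or high replicate 2 or 3 or low replicate 1 or 2 of Saengmaek-san. Menthae Herba differed from Saposhnikoviae Radix at equal doses in TSC22D3 alone, by 0.92 ± 0.15 (adjusted p = 4.5e-05), 1 of 7 against 11.5% of all genes. Without Saposhnikoviae Radix high replicate 2, 5 of the 7 were called in that comparison, among 8400 of all 19366 genes.

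Further genes of the pathway were counted on lists, with no test of a list. The lists were chosen with earlier results of these data known, so their counts beside the share of all genes are a description only. Of 27 other genes that the receptor is known to induce, 25 were tested, and ZBTB16 and FAM107A had too few counts. At the high dose against vehicle 12 of the 25 rose and 5 fell with Polygalae Radix, where 22.4% and 25.6% of all genes did, and 13 rose and 4 fell with Guibi-tang, against 23.6% and 26.6%. With these extracts the share of the list that fell was below that of all genes. Aucklandiae Radix had 6 higher and 5 lower (15.7% and 17.0% of all genes), Menthae Herba 7 and 4 (11.1% and 11.7%) and Saengmaek-san 6 and 4 (8.87% and 8.54%). Saposhnikoviae Radix had 3 and 1 (8.61% and 4.05%) and Soyo-san 2 and 2 (1.62% and 1.29%). The list's median log2 fold change was 0.52 with Polygalae Radix and 0.44 with Guibi-tang, where that of all genes was 0.03 for each, and between -0.08 and 0.04 with the others.

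ANGPTL4, a secreted inhibitor of lipoprotein lipase, was among the 3 largest changes of this list with 6 extracts. It rose from 13.9 ± 2.29 CPM in vehicle (SD, n = 3) to 282 ± 12.9 CPM with Aucklandiae Radix (SD, n = 2; log2 fold change 4.34, adjusted p = 1.5e-17), where KLF9, CEBPD and TSC22D3 fell. CRISPLD2, a secreted protein gene induced by glucocorticoids in airway cells, fell from 75.7 ± 0.702 CPM to 17.3 ± 2.30 CPM with Polygalae Radix (-2.13, adjusted p = 4.4e-10), to 17.4 ± 2.13 CPM with Guibi-tang (-2.12, adjusted p = 7.7e-12) and to 23.4 ± 0.908 CPM with Aucklandiae Radix (-1.69, adjusted p = 1.2e-07). TGM2, which encodes transglutaminase 2, fell from 819 ± 29.7 CPM to 90.6 ± 3.47 CPM with Polygalae Radix (-3.18, adjusted p = 9.3e-28) and to 157 ± 4.84 CPM with Guibi-tang (-2.38, adjusted p = 1.9e-26). Among the 3 largest changes, IRS2 rose from 38.6 ± 3.97 to 112 ± 18.1 CPM with Polygalae Radix (1.53, adjusted p = 1.0e-11). ANGPTL4 rose to 62.4 ± 0.847 CPM with Guibi-tang (2.17, adjusted p = 5.7e-11). Known receptor-induced genes thus moved in both directions with the extracts that changed the most of them, and more of the list rose than fell.

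The chaperones that hold the receptor ready for hormone fell with the extracts that lowered FKBP5. Of 12 chaperones and co-chaperones, 10 fell and 1 rose with Polygalae Radix and 11 fell with Guibi-tang, against 25.6% and 26.6% of all genes called lower (22.4% were called higher with Polygalae Radix). The list medians were -1.06 and -1.03. HSP90AB1 fell from 1698.3 ± 42.0 CPM in vehicle to 334 ± 21.8 CPM with Polygalae Radix (-2.35, adjusted p = 1.6e-25) and to 320 ± 7.15 CPM with Guibi-tang (-2.41, adjusted p = 1.5e-27). HSP90AA1 fell from 1222.0 ± 26.8 CPM to 215 ± 9.21 CPM (-2.51, adjusted p = 1.1e-22) and 275 ± 3.72 CPM (-2.15, adjusted p = 4.5e-23). FKBP4, the co-chaperone that FKBP5 competes with on HSP90, fell from 163 ± 5.23 CPM to 48.6 ± 1.23 CPM with Polygalae Radix (-1.74, adjusted p = 4.6e-12). From low to high dose the counts were 10 lower for Polygalae Radix and 11 lower for Guibi-tang, against 25.2% and 27.4% of all genes.

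With Aucklandiae Radix 3 of the 12 chaperones rose and 4 fell, against 15.7% and 17.0% of all genes. Among those that fell was HSPA8, a constitutive HSP70, from 1319.6 ± 31.5 to 476 ± 8.63 CPM (-1.47, adjusted p = 1.5e-18). With Menthae Herba 0 rose and 3 fell (11.1% and 11.7% of all genes), and with Saengmaek-san 2 rose and 2 fell (8.87% and 8.54%). Saposhnikoviae Radix had 2 higher (8.61%) and Soyo-san 2 lower (1.29%).

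Of 12 genes that the receptor is known to repress, most of them cytokines, adhesion molecules and matrix proteases, 8 rose and 2 fell with Aucklandiae Radix, where 15.7% and 17.0% of all genes did. Guibi-tang had 6 higher and 4 lower (23.6% and 26.6% of all genes), Menthae Herba 6 and 4 (11.1% and 11.7%), and Saengmaek-san 5 and 0 (8.87% and 8.54%). Saposhnikoviae Radix had 3 and 1 (8.61% and 4.05%), Soyo-san 3 and 0 (1.62% and 1.29%), and Polygalae Radix 2 and 4 (22.4% and 25.6%). LIF, a cytokine of the interleukin 6 family, rose from 21.9 ± 1.18 CPM in vehicle to 96.9 ± 3.22 CPM with Guibi-tang (2.14, adjusted p = 3.7e-24), 88.5 ± 5.38 CPM with Polygalae Radix (2.01, adjusted p = 2.7e-22) and 73.4 ± 4.13 CPM with Aucklandiae Radix (1.74, adjusted p = 1.2e-19). MMP3, the protease stromelysin, fell from 11.0 ± 0.262 to 3.28 ± 0.171 CPM with Polygalae Radix (-1.74, adjusted p = 1.2e-14). ICAM1, an adhesion molecule, fell from 46.0 ± 0.440 to 18.2 ± 0.186 CPM with Aucklandiae Radix (-1.34, adjusted p = 4.7e-16). LIF and IL6 were the only 2 of the 12 called higher with Polygalae Radix, where 4 were called lower.

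Of 11 coregulators, 1 rose and 3 fell with Polygalae Radix, against 22.4% and 25.6% of all genes, and 3 fell with Guibi-tang, against 26.6%, so that the falls were near the share of all genes. With Menthae Herba 3 fell (11.7% of all genes), with Saengmaek-san 4 (8.54%), with Aucklandiae Radix 1 (17.0%) and with Saposhnikoviae Radix 1 (4.05%). Of 7 related receptors and cortisol enzymes 5 were tested. The mineralocorticoid receptor gene NR3C2 had a median of 0.226 CPM over all libraries, and HSD11B1 and HSD11B2, whose enzymes make and inactivate cortisol, reached at most 0.153 and 0.289 CPM in any library. H6PD, which supplies cofactor to HSD11B1, fell from 148 ± 10.2 to 70.7 ± 2.74 CPM with Polygalae Radix (-1.06, adjusted p = 7.0e-09).

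**Figure D4:**
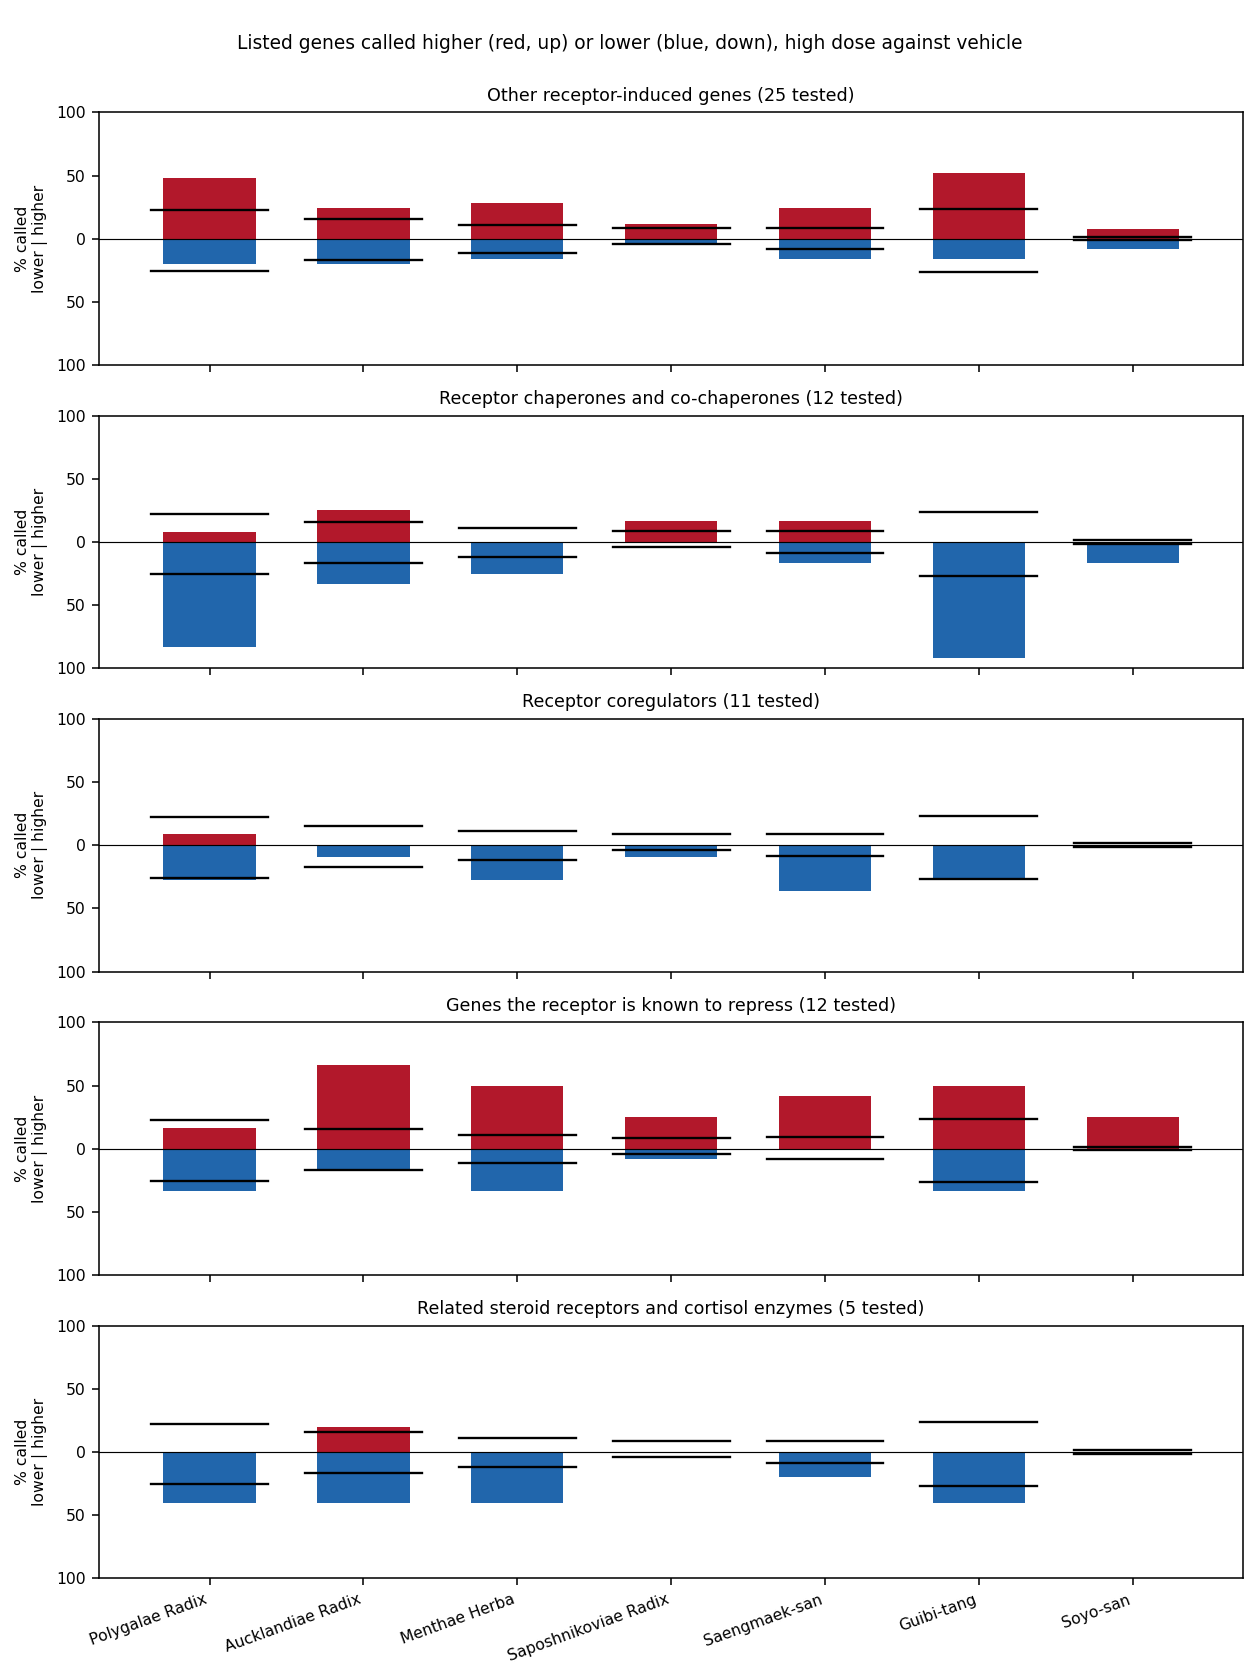
Share of the tested genes of each list (vertical axis, %) called higher (red, upward) or lower (blue, downward) at the high dose of 7 extracts against vehicle (horizontal axis); black lines mark the share of all genes called in that direction. The chaperone bars reach 10 of 12 lower with Polygalae Radix and 11 of 12 lower with Guibi-tang, where 25.6% and 26.6% of all genes were called lower. The lists were chosen with earlier results of these data known.

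Within the 7 genes, levels over the 25 group means followed each other in 2 loose clusters, given here as a description. The mean log2 CPM of KLF9 and TSC22D3 had a Pearson r of 0.79, that of TSC22D3 and CEBPD 0.76 and that of KLF9 and CEBPD 0.70. SGK1 and ERRFI1 had an r of 0.77, and NR3C1 with ERRFI1 0.72. FKBP5 had an r of 0.44 with NR3C1 and between -0.31 and 0.15 with the other 5. The groups share a vehicle, library sets and the length slope, with which the NR3C1 group means had an r of 0.956, ERRFI1 0.739, SGK1 0.634, FKBP5 0.479, KLF9 0.400, TSC22D3 -0.108 and CEBPD -0.232.

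Among 11398 other genes with a symbol and a mean log2 CPM of at least 2, those with the pattern most like each member over the 25 group means were named. For NR3C1 they were ARHGAP42 (r = 0.965), SUZ12 (0.963) and ITPRID2 (0.963), and for FKBP5 TOP2B (0.947), MRE11 (0.942) and STRBP (0.938). For TSC22D3 they were RCCD1 (0.933), TMEM107 (0.917) and CCDC8 (0.914), and for KLF9 SNRNP48 (0.933), DNMT3A (0.929) and CDKN1B (0.924). For CEBPD they were PSMB8-AS1 (0.922), B3GNT9 (0.894) and THG1L (0.885), the first an antisense gene whose reads cannot be told from those of its partner unless strand was used in counting. For SGK1 they were MFSD14A (0.950), PHF13 (0.950) and GMEB2 (0.948), and for ERRFI1 AKAP10 (0.972), KDM6A (0.968) and ZNF398 (0.967). None of the 7 members was among the 3 genes most like another member.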

How the data were processed

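RNA was sequenced from 60 libraries of SW1783 cells. The authors deposited 1 table of expected counts per gene, estimated with RSEM 1.3.3 from STAR 2.7.3a alignments to GRCh38 after FastQC 0.11.9 and Trim Galore 0.6.5, per the submitters' processing notes; the strand setting is not given in the sources used here. Of the values 9.62% were not whole, and they were rounded before testing. Symbols were matched for 41209 of 60675 identifiers (67.9%). Groups came from the sample labels.

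All 60 libraries in 25 groups were fitted together with edgeR 4.0.16 in R 4.3.3 (TMM, low-count filter with a minimum of 10 in a group and 15 in total, quasi-likelihood test, 35 residual degrees of freedom). A total of 19366 genes were tested with Benjamini-Hochberg adjustment and called at an adjusted p under 0.05. The transcript-length slope of a library is that of its log2 deviation from the vehicle mean on log2 median transcript length, over 10336 genes. The scripts were tested on simulated data. Intervals of fold changes are at 95%. Their width rests on a spread between libraries estimated over all 25 groups, length-tilted libraries included, and not on the compared groups alone.

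The 7 genes are named in every main comparison; of each pathway list at most 3 called genes with the largest log2 fold change and a mean log2 CPM of at least 2 are named, and 3 genes by pattern likeness. The members and lists were chosen with earlier results of these data known. The alternatives left out each library in turn or the length-tilted libraries, added the length slope or a replicate block to the fit, fitted only the groups compared, dropped the low-count filter, or replaced TMM by RLE size factors and edgeR by DESeq2 1.42.0. Pairing by replicate number was judged by a cutoff that needed 3 same-numbered pairs, all with deviations correlated above a set value. Only Saengmaek-san medium and vehicle, which are of different library sets, met it, at 0.14 to 0.61. Comparisons with 2 pairs could not meet it, and Soyo-san low and vehicle had 0.15 to 0.53. Whether the numbers mark paired samples is thus not known. Where leaving out a library left 1 in a group, its spread was taken from the other groups. Library totals were 19031094 to 37686975 counts, and the fewest counts of a member in a library were 84, for CEBPD. Some listed genes are counted in their lists and are not reported singly here.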

Additional observations from a re-analysis of the deposited data

Results flagged for a closer look

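8 differences between extracts of the same library set, in the change from low to high dose, passed the test by edgeR's quasi-likelihood interaction term. Polygalae Radix differed from Aucklandiae Radix by 1.37 on the log2 scale for TSC22D3, 2.86 for KLF9, 1.24 for SGK1 and 2.97 for CEBPD. In that comparison 33.9% of all genes were called. Menthae Herba differed from Saposhnikoviae Radix by 0.92 for TSC22D3, where 11.5% of all genes were called. Guibi-tang differed from Saengmaek-san by -0.58 for FKBP5, 0.45 for SGK1 and 1.22 for ERRFI1, where 34.9% of all genes were called. The FKBP5 call was lost without any 1 of several libraries, as given above.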

How the results depend on the processing

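DESeq2 gave 214 of the members' 217 results on the same side of the threshold and with the same sign, and RLE size factors 216. With a replicate block all 217 were the same. With the block within a library set, 1 of the 7 genes was called for Saposhnikoviae Radix high against low (TSC22D3, -0.42, adjusted p = 0.0495), and ERRFI1 lost its call for Aucklandiae Radix high against low (0.73, adjusted p = 0.0537). TSC22D3 was called for Guibi-tang minus Saengmaek-san in that fit (-0.35, adjusted p = 0.0385). For Saengmaek-san medium and vehicle, which met the pairing cutoff, the replicate block changed no member's call.

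Leaving out the length-tilted libraries or adding the slope as a covariate changed the most. With the covariate 6 signs turned among results called in either fit: NR3C1 for Menthae Herba high (0.21), Saposhnikoviae Radix high (0.21) and Guibi-tang low (0.18) against vehicle, ERRFI1 for Menthae Herba high (0.44) against vehicle and for Menthae Herba minus Saposhnikoviae Radix (0.66), and KLF9 for Saposhnikoviae Radix low (0.43). The cause was not tested. Counts of the 7 genes called with the covariate were 4 for Polygalae Radix medium against vehicle, where 3714 of all genes were called. They were also 4 for Saengmaek-san high against vehicle (6853 of all genes) and 3 for Menthae Herba minus Saposhnikoviae Radix (4631 of all genes). They were 5 for Guibi-tang high against low and 7 for Polygalae Radix minus Aucklandiae Radix. There all genes called stayed within 1.5 times of the 9923 and 6564 of the main fit. In the other comparisons that the covariate moved they were 1 or 2. The covariate moved the count of all genes by over 1.5 times in 23 comparisons, to between 535 and 9712. Without the tilted libraries they were 5 for both Guibi-tang high comparisons and 4 for Menthae Herba high against low. There all genes called stayed within 1.5 times of the 9726, 9923 and 3022 of the main fit. For Polygalae Radix medium they were 3, where 3610 of all genes were called. No count is given here for comparisons in which this left 1 library in a group.

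With only the groups compared the count was 5 for both Guibi-tang high comparisons, 3 for Polygalae Radix medium and Soyo-san high, 0 for Menthae Herba high against low and Saposhnikoviae Radix low, and 1 or 2 in the others it moved. With no low-count filter it was 3 for Aucklandiae Radix high against low and 1 for Menthae Herba high against low (1946 of all genes). It was 0 for Saposhnikoviae Radix low (1207 of all genes) and Saengmaek-san high (1940 of all genes). DESeq2 called 1 for Polygalae Radix medium and for Saposhnikoviae Radix high against low, and 2 for Menthae Herba minus Saposhnikoviae Radix, as did RLE size factors for the last. Leaving out 1 library gave 2 for Menthae Herba high against vehicle (2846 to 4802 of all genes) and 1 to 2 against low (1810 to 3534). It gave 0 to 1 for Saposhnikoviae Radix high against vehicle (512 to 5587), 0 to 6 against low (22 to 5005) and 0 to 5 for its low dose (242 to 6821). For Saengmaek-san high against vehicle it gave 0 to 1 (2026 to 3527). For Guibi-tang high it gave 2 to 3 against vehicle (8769 to 8931) and 3 against low (8731 to 9239). The range was 1 to 5 for Menthae Herba minus Saposhnikoviae Radix (1353 to 8400) and 2 to 3 for Guibi-tang minus Saengmaek-san (5983 to 6575). For Polygalae Radix and Aucklandiae Radix some of these fits left 1 library in a group, and no count is given here.

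Over all genes, the share of higher among called genes moved by over 10 points for Saposhnikoviae Radix high against low (52.1% to 63.4% by RLE size factors and 62.6% by DESeq2), and by DESeq2 for the low doses of Aucklandiae Radix (69.5% to 57.4%), Menthae Herba (56.2% to 45.8%) and Saengmaek-san (68.9% to 57.5%) and the medium doses of Saengmaek-san (65.8% to 51.9%) and Soyo-san (82.6% to 71.4%). The count of all genes called moved by over 1.5 times in 23 comparisons with the covariate, 22 with no filter, 21 with only the groups compared, 18 without the tilted libraries and 12 by DESeq2. The replicate block moved it from 46 to 89 for Soyo-san medium and from 295 to 481 for Soyo-san low, and the block within a set from 73 to 42 for Saposhnikoviae Radix high against low.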
